A study of Mus musculus with 7 samples.

Results

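The matrix proteases and their inhibitors described here are the 46 genes, of 21892 in the deposited table, whose symbols follow the Mmp, Timp or Adamts pattern with a number. They comprise 23 matrix metalloproteinase genes (Mmp), 4 genes for tissue inhibitors of metalloproteinases (Timp) and 19 genes for secreted proteases with thrombospondin motifs (Adamts). The rule that finds them reads symbols and no measured value, although the gene families were picked with earlier results of these data known. The samples are 7 mouse lung tumors with deletions in exon 19 of Egfr, grown under the skin of C57BL/6 mice, and their RNA was sequenced after depletion of ribosomal RNA. The first 3 groups received vehicle, sampled at day 3, or gefitinib, a drug that blocks EGFR kinase activity, over 3 or 14 days. The other 4 groups, sampled at day 21, received 14 days of gefitinib and then 7 days of both antibodies, of 4H2, of DC101 or of vehicle. DC101 is an antibody against mouse VEGFR2, and 4H2 stands for the PD-1 blockade that the series title names. Both vehicle groups are recorded as untreated in another field of the labels, and their titles were followed here. Every tumor came from passaged material with the same kind of Egfr mutation, and the labels do not say how many mice a library pools.

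Matrix metalloproteinases are zinc-dependent enzymes, made as inactive precursors, that cut collagens, laminins, proteoglycans and other proteins outside the cell. TIMP proteins block them by binding the active site. ADAMTS enzymes trim procollagen and cleave proteoglycans such as aggrecan and versican. In tumors, fibroblasts, macrophages, neutrophils, vessel cells and cancer cells can all supply these enzymes, and their balance with the inhibitors bears on tissue remodelling, vessel growth and invasion.

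Values are TPM, a share of all transcripts in a library, a level scaled for gene length that allows genes to be compared within a library. The deposited table rounds them to 1 decimal, sequencing depth is not given, and each group is 1 library. No spread, test or p-value can therefore be had, and each difference described compares a pair of libraries. A log2 difference is that of TPM + 1, which understates the ratio at low levels, and a gene is called higher or lower when it lies at least 2-fold apart on that scale. Calls were made for the 13998 genes whose mean over the 7 libraries was at least 1 TPM. This left 31 of the 46 genes, namely 14 Mmp, 3 Timp and 14 Adamts genes.

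The remaining 15 genes were at or near the bottom of the scale. Mmp1a and Mmp20, which encode an interstitial collagenase and the enamel protease, were listed at 0 in every library, and Mmp1b was listed above 0 once, at 0.1 TPM. Mmp7, Mmp8, Mmp10, Mmp16, Mmp21, Mmp24, Timp4, Adamts8, Adamts13, Adamts16, Adamts19 and Adamts20 never passed 2.6 TPM. A value of 0 is given only as listed, because all 13 protein genes of the mitochondrial genome, which every cell uses, are listed at 0 throughout.

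The summed TPM of all 46 genes was 977.7 with vehicle at day 3, 2986 at day 3 of gefitinib and 2863 at day 14. At day 21 it was 1368 with both antibodies, 1512 with 4H2, 1711 with DC101 and 2167 with vehicle. The highest of the 46 genes held between 18.5% and 29.9% of this sum. Mmp14 and Mmp2 together made up 42.2% of the summed Mmp TPM with vehicle at day 3, and 79.4% and 75.3% at days 3 and 14 of gefitinib. Their share at day 21 was 66.6% with both antibodies, 73.7% with 4H2, 56.3% with DC101 and 57.9% with vehicle. Timp2 was the highest Timp gene in every library.

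The ratio of summed Mmp to summed Timp TPM was 1 with vehicle at day 3, 1.79 at day 3 of gefitinib and 1.33 at day 14. At day 21 the ratio was 2.19 with both antibodies, 1.87 with 4H2, 1.31 with DC101 and 1.15 with vehicle. The Mmp sum at day 21 was 788.4 with both antibodies, 845.3 with 4H2, 812.2 with DC101 and 1004 with vehicle, whereas the Timp sum was 360.2 TPM with both antibodies, 453.2 with 4H2, 617.8 with DC101 and 870 with vehicle. The higher ratios with 4H2 and with both antibodies thus came with a lower Timp sum rather than a higher Mmp sum. Adamts genes summed to 242.7, 383.1 and 309.8 TPM over vehicle at day 3 and gefitinib at days 3 and 14, and to between 213.8 and 292.4 TPM at day 21.

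**Figure D1:**
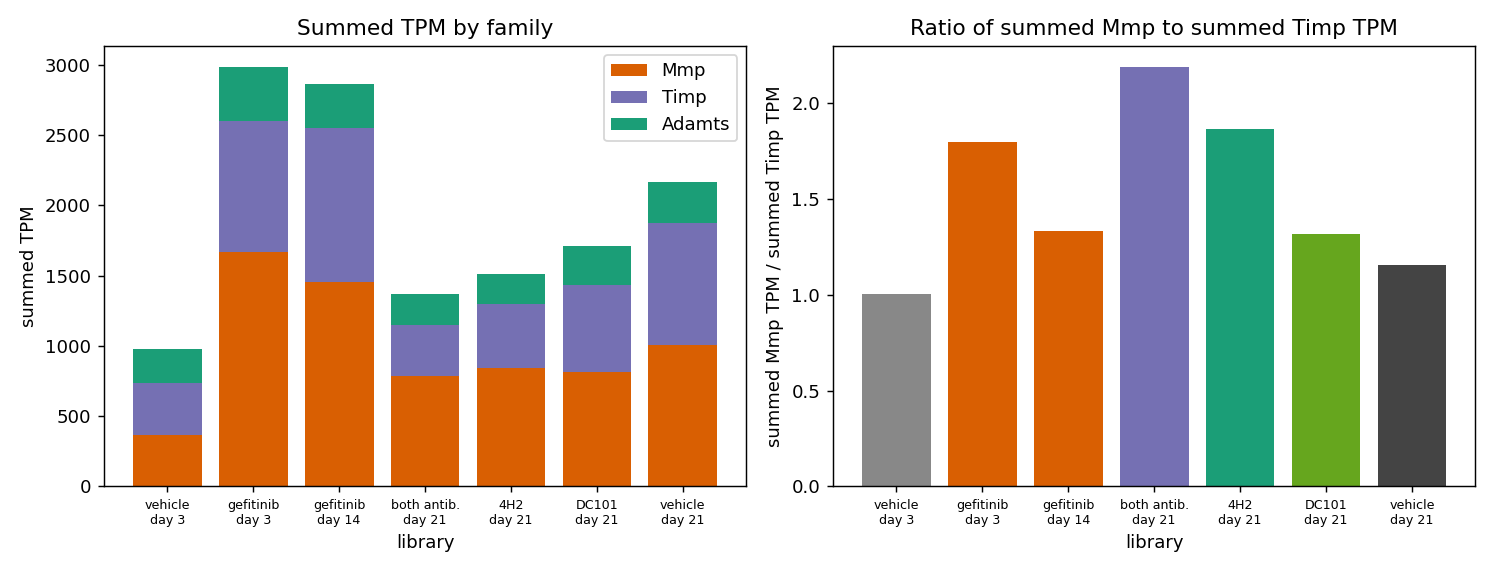
Summed TPM of the Mmp, Timp and Adamts genes (left, stacked) and the ratio of the Mmp sum to the Timp sum (right) in each library, 1 library per bar. The total is lowest with vehicle at day 3 (977.7 TPM) and highest at day 3 of gefitinib (2986 TPM), and the ratio is highest with both antibodies (2.19).

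The libraries differed widely in cell type markers, and 2 of them stood apart. The 14 epithelial markers summed to 446.1 TPM with both antibodies and 52.6 TPM with 4H2, against 8443 TPM with vehicle at day 21. Egfr, named after its values were seen, was at 48.3 TPM with both antibodies and 19.4 with 4H2, against 446.7 TPM with vehicle at day 21. The 9 alveolar markers, genes of the lung epithelium from which the labelled tumor type derives, summed to 784.1 and 142.9 TPM with both antibodies and with 4H2, and to between 9320 and 18584 TPM in the other 5 libraries. Skeletal muscle markers summed to 71399 TPM with both antibodies, 71514 with 4H2 and 15311 with DC101, against 2820 TPM with vehicle. Hair and skin markers were at 607.5 TPM with both antibodies and at or below 114.3 TPM in the other 6 libraries. Fibroblast markers summed to 2631 TPM with vehicle at day 3, 26017 at day 3 of gefitinib and 13199 at day 14, and macrophage markers to 2269 TPM with vehicle at day 3 and 19827 and 21098 TPM at days 3 and 14 of gefitinib. No fibroblast, macrophage, epithelial, alveolar, endothelial or muscle marker was listed at 0 in any library. In bulk tissue, fewer cells of a type and less RNA per cell cannot be told apart.

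**Figure D2:**
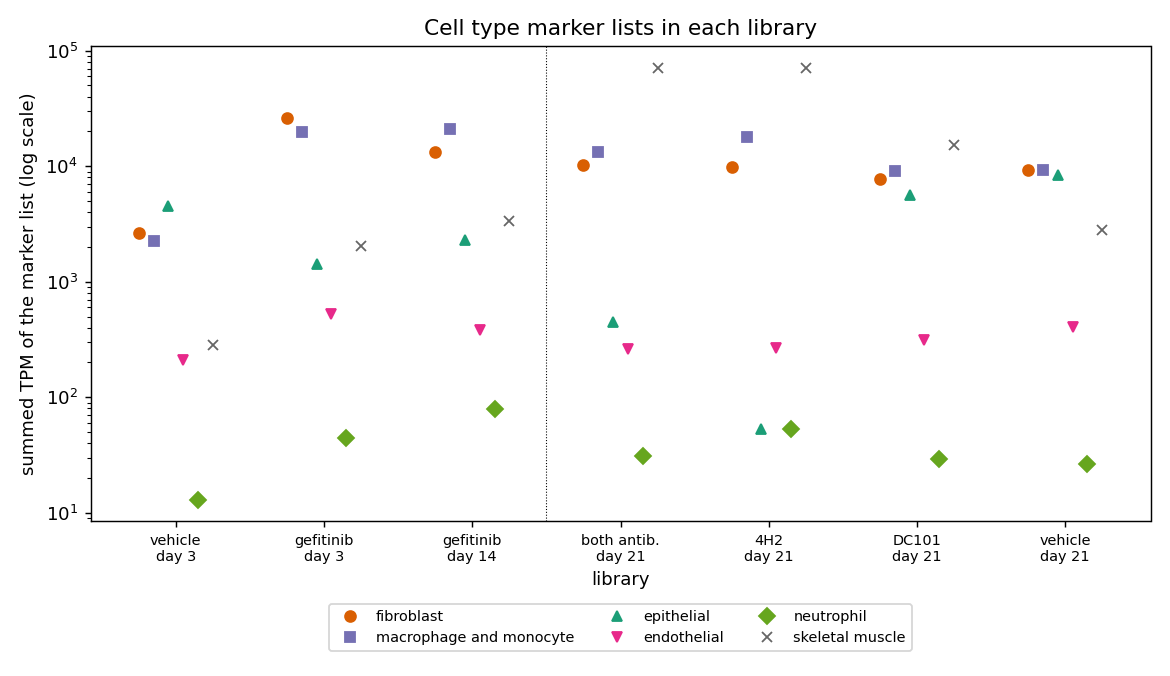
Summed TPM, on a log scale, of 6 cell type marker lists in each library, 1 point per list and library. Epithelial markers are at 446.1 and 52.6 TPM with both antibodies and with 4H2, against 8443 TPM with vehicle at day 21, and skeletal muscle markers at 71399 and 71514 TPM against 2820.

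Among the gelatinases, which cut denatured collagen and basement membrane collagen, Mmp2 was high with gefitinib and Mmp9 followed another course. Mmp2 was at 50.6 TPM with vehicle at day 3, 549.3 at day 3 of gefitinib and 411.2 at day 14. For Mmp2, day 21 values were 206.8 TPM with both antibodies, 169.9 with 4H2, 149.4 with DC101 and 180.1 with vehicle. Its log2 difference was 3.41 at day 3 and 3.00 at day 14 of gefitinib, and -1.19 in the day 21 vehicle library against day 14 of gefitinib. No day 21 antibody library was 2-fold apart from vehicle in Mmp2 (chromosome 8, 92827290 to 92853421, GRCm38.p6). Mmp9 was at 4.3 TPM with vehicle at day 3, 45.5 at day 3 of gefitinib and 13.8 at day 14. For Mmp9, day 21 values were 10.4 TPM with both antibodies, 11.7 with 4H2, 25.2 with DC101 and 48.2 with vehicle. Mmp9, the second gelatinase and a product of neutrophils and macrophages among other cells (chromosome 2, 164940326 to 164955850), thus had its highest levels at day 3 of gefitinib and with vehicle at day 21. The log2 differences against vehicle at day 21 were -2.11 with both antibodies, -1.95 with 4H2 and -0.91 with DC101, the last within 2-fold. The 11 neutrophil markers summed to 13.0 TPM with vehicle at day 3, 44.1 at day 3 of gefitinib and 79.4 at day 14. Their day 21 sums were 31 TPM with both antibodies, 53.4 with 4H2, 29.2 with DC101 and 26.2 with vehicle. In each library 3 to 7 of these markers were listed at 0, Ly6g in all 7, and Csf3r, singled out after its values were seen, gave 37.3 of the 44.1, 62.6 of the 79.4 and 50.4 of the 53.4 TPM. Macrophage markers summed to 13269 TPM with both antibodies, 17742 with 4H2, 9038 with DC101 and 9311 with vehicle at day 21. The part of either cell type in the Mmp9 values was not tested.

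The membrane-type enzymes stay anchored to the cell surface. Of their genes, Mmp14 and Mmp15 had the highest means over the 7 libraries and differed from vehicle in opposite directions under gefitinib. Mmp14 (chromosome 14, 54431598 to 54442456) encodes MT1-MMP, which cuts fibrillar collagen and activates the Mmp2 precursor with the Timp2 protein as a bridge. Mmp14 was at 104.6 TPM with vehicle at day 3, 777.9 at day 3 of gefitinib and 686.1 at day 14. For Mmp14, day 21 values were 317.9 TPM with both antibodies, 452.9 with 4H2, 308.2 with DC101 and 401.8 with vehicle. It was the highest of all 23 Mmp genes in every library, with log2 differences of 2.88 and 2.70 at days 3 and 14 of gefitinib. Mmp15 (chromosome 8, 95352296 to 95374293) encodes MT2-MMP. Mmp15 was at 79.1 TPM with vehicle at day 3, 13.7 at day 3 of gefitinib and 11.8 at day 14. For Mmp15, day 21 values were 27.1 TPM with both antibodies, 24.4 with 4H2, 74.2 with DC101 and 96.2 with vehicle. Its log2 differences under gefitinib were -2.45 and -2.65, and the day 21 vehicle library stood 2.92 above day 14 of gefitinib, the largest difference of any of the 31 genes in that comparison. With both antibodies and with 4H2 Mmp15 was lower than with vehicle by log2 differences of -1.79 and -1.94. Epithelial markers were lower in the same libraries, at 1422 and 2293 TPM at days 3 and 14 of gefitinib against 4526 TPM with vehicle at day 3. At day 21 they summed to 446.1 TPM with both antibodies and 52.6 with 4H2, against 8443 with vehicle. With both antibodies and with 4H2 these sums were below those under gefitinib, whereas Mmp15 was above its gefitinib levels. The part of epithelial markers in the Mmp15 values was not tested.

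The remaining 2 membrane-type genes compared were higher with gefitinib. Mmp25 encodes a lipid-anchored enzyme best known from leukocytes. Mmp25 was at 7.7 TPM with vehicle at day 3, 29.9 at day 3 of gefitinib and 50 at day 14. For Mmp25, day 21 values were 20.3 TPM with both antibodies, 39.2 with 4H2, 14.1 with DC101 and 17.1 with vehicle. The gene was 2-fold higher with 4H2 than with vehicle (log2 difference 1.15) and not with both antibodies (0.23). Mmp17, which encodes another lipid-anchored enzyme, did not pass 2.4 TPM. Mmp17 was at 0.1 TPM with vehicle at day 3, 2.4 at day 3 of gefitinib and 1.3 at day 14. For Mmp17, day 21 values were 1.3 TPM with both antibodies, 0.9 with 4H2, 1.2 with DC101 and 1.5 with vehicle. At these levels the rounding to 0.1 TPM is a large part of any ratio.

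Ratios within the Mmp14, Timp2 and Mmp2 set do not depend on the scaling of a library. Mmp14 over Timp2 was 0.508 with vehicle at day 3, 1.26 at day 3 of gefitinib and 1.17 at day 14. At day 21 this ratio was 1.22 with both antibodies, 1.71 with 4H2, 0.867 with DC101 and 1.01 with vehicle. The ratio of Mmp2 to Timp2 was 0.246 with vehicle at day 3 and 0.887 and 0.701 at days 3 and 14 of gefitinib. Both protease genes therefore stood further from vehicle at day 3 than their inhibitor did.

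A run of 10 Mmp genes lies side by side in one cluster on chromosome 9, from 7272514 to 7699585 in GRCm38.p6, with no other protein-coding gene annotated in the gaps between them by RefSeq. In order these are Mmp13, Mmp12, Mmp1b, Mmp3, Mmp1a, Mmp10, Mmp8, Mmp27, Mmp20 and Mmp7, and 4 of them passed the filter on low values. Neighbours differed in their course. Mmp13 encodes collagenase 3, the main interstitial collagenase of the mouse. Mmp13 was at 2.1 TPM with vehicle at day 3, 11.8 at day 3 of gefitinib and 21.3 at day 14. For Mmp13, day 21 values were 2.6 TPM with both antibodies, 2 with 4H2, 13.6 with DC101 and 17.5 with vehicle. The log2 difference was 2.05 and 2.85 at days 3 and 14 of gefitinib, -2.36 with both antibodies and -2.62 with 4H2 against vehicle. Mmp12 encodes the macrophage elastase. Mmp12 was at 51.4 TPM with vehicle at day 3, 64.3 at day 3 of gefitinib and 46.2 at day 14. For Mmp12, day 21 values were 63.6 TPM with both antibodies, 66.5 with 4H2, 113.4 with DC101 and 104.2 with vehicle. Mmp12 was within 2-fold of vehicle at both times of gefitinib. Macrophage markers summed to 19827 and 21098 against 2269 TPM in the same libraries, with 13 of 14 of them called higher at each time. The part of macrophages in the Mmp12 values was not tested.

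Mmp3 encodes stromelysin-1, which cuts proteoglycans and activates other Mmp precursors. Mmp3 was at 9.7 TPM with vehicle at day 3, 18.3 at day 3 of gefitinib and 88.7 at day 14. For Mmp3, day 21 values were 64 TPM with both antibodies, 20.9 with 4H2, 39.6 with DC101 and 38 with vehicle. It was highest at day 14 of gefitinib, 2.22 above day 3 of gefitinib on the log2 scale, the largest positive difference of that pair among the 31 genes. Mmp3 was also higher with both antibodies than with 4H2 alone, by a log2 difference of 1.57. Mmp27, a little studied member, was highest with both antibodies. Mmp27 was at 0.2 TPM with vehicle at day 3, 2.2 at day 3 of gefitinib and 2.3 at day 14. For Mmp27, day 21 values were 3.3 TPM with both antibodies, 0.4 with 4H2, 1 with DC101 and 0.4 with vehicle. In the cluster, Mmp12 was thus within 2-fold of vehicle at both times of gefitinib, and Mmp3 at day 3 (0.85) but not at day 14. Mmp13 and Mmp27 were higher at both times. With 5 rather than 1 TPM added, the Mmp27 differences were 0.47 and 0.49, within 2-fold.

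The promoters of this cluster share a feature that the symbols did not select. The letters TGANTCA, with N any base, include the sites recognised by AP-1, a dimer of Fos and Jun proteins that growth factor signalling induces. They were searched on both strands in windows from 250 bases before to 50 after each RefSeq start. These letters read the same on both strands. They occurred in a window of 8 of the 10 cluster genes, against 8.97% of the 27025 genes with a window. GGGCGG, the GC box, also searched on both strands, occurred in none of the 10 and in 38.2% of all genes. Of the 46 genes 32 had a window, and outside the cluster 0 of 22 had TGANTCA, while 18 of 22 had a GC box. The windows of the 4 cluster genes compared are shown 5′ to 3′ from the RefSeq promoter table of GRCm38.p6, with TGANTCA in capitals where it occurs. For Mmp12, which has a second window further upstream without these letters, the downstream one is shown.
Mmp13, chr9:7272264-7272563, plus strand: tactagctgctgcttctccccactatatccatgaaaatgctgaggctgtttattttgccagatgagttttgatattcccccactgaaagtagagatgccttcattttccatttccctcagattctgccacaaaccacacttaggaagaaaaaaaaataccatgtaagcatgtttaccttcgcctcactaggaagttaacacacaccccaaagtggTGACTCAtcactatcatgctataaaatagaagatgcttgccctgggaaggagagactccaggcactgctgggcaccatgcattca
Mmp12, chr9:7347124-7347423, plus strand: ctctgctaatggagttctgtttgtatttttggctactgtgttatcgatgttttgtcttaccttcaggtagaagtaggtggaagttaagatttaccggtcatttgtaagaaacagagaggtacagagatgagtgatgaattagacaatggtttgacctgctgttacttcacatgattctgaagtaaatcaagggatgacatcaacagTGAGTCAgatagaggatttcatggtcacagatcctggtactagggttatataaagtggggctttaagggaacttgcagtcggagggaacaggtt
Mmp3, chr9:7445572-7445871, plus strand: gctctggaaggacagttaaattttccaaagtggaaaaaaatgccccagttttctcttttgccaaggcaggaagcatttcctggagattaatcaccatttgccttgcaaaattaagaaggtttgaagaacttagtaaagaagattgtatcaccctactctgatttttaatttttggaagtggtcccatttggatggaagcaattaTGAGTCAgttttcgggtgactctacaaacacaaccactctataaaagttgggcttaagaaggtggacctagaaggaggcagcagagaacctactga
Mmp27, chr9:7571146-7571445, plus strand: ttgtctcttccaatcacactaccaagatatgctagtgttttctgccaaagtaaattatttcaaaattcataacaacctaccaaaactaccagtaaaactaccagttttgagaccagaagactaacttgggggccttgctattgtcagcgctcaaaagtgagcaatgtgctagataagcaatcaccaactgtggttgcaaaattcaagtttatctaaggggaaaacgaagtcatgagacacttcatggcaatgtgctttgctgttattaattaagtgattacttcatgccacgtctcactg

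The match began 35 bases before the start in Mmp13, 44 in Mmp12 and 46 in Mmp3, and the Mmp27 window held none. These 3 genes with the match had different courses over the libraries, as given above. A match describes letters in a window and does not show binding. For comparison, the windows of the membrane-type genes Mmp14, higher with gefitinib, and Mmp15, lower, follow, with GGGCGG or its reverse complement in capitals. Neither holds TGANTCA.
Mmp14, chr14:54431348-54431647, plus strand: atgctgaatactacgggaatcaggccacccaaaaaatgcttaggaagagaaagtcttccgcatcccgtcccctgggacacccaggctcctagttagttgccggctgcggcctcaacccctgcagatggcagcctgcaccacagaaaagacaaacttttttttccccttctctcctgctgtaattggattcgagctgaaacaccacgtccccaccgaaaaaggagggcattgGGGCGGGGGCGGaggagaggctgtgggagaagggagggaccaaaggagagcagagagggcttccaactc
Mmp15, chr8:95352046-95352345, plus strand: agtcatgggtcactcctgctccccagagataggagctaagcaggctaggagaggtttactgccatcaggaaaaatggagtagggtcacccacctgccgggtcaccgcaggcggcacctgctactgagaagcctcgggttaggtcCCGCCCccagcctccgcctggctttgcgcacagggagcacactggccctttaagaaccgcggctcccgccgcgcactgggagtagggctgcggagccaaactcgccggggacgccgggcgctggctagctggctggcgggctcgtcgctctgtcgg

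Mmp14 has 2 GC boxes side by side and Mmp15 has 1, so that a GC box was present in the gene that was higher with gefitinib and in the gene that was lower. Of the genes called at day 3 of gefitinib, 12 higher and 4 lower ones had a window. A GC box was held by 8 of the 12 and 4 of the 4, against 18 of the 32 members with a window and 38.2% of all genes. TGANTCA was held by 1 of the 12 and 0 of the 4, against 8 of the 32 members and 8.97% of all genes.

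Of the other Mmp genes, Mmp11 encodes stromelysin-3, an enzyme known from the fibroblasts around carcinomas. Mmp11 was at 33.1 TPM with vehicle at day 3, 37.6 at day 3 of gefitinib and 69.5 at day 14. For Mmp11, day 21 values were 19.4 TPM with both antibodies, 8.3 with 4H2, 32.2 with DC101 and 56.7 with vehicle. Its log2 difference with 4H2 against vehicle was -2.63, next to -2.62 for Mmp13 at the low end of the 31 genes. Fibroblast markers summed to 9875 TPM with 4H2 against 9311 with vehicle, with 9 of the 14 above vehicle and 5 below. The part of fibroblasts in the Mmp11 values was not tested. Mmp19 encodes a protease of basement membrane proteins. Mmp19 was at 17.3 TPM with vehicle at day 3, 61.8 at day 3 of gefitinib and 33 at day 14. For Mmp19, day 21 values were 32.5 TPM with both antibodies, 28.5 with 4H2, 28.4 with DC101 and 27.1 with vehicle. Mmp23, whose product lacks the hemopexin-like domain of most family members, was highest at day 3 of gefitinib. Mmp23 was at 5.7 TPM with vehicle at day 3, 50.2 at day 3 of gefitinib and 17 at day 14. For Mmp23, day 21 values were 16.2 TPM with both antibodies, 16.4 with 4H2, 9.2 with DC101 and 12.5 with vehicle. Mmp28, which encodes epilysin, did not pass 4.7 TPM. Mmp28 was at 0.6 TPM with vehicle at day 3, 4.7 at day 3 of gefitinib and 3.3 at day 14. For Mmp28, day 21 values were 2 TPM with both antibodies, 2 with 4H2, 1.3 with DC101 and 1.6 with vehicle. All 3 of Mmp19, Mmp23 and Mmp28 were at least 2-fold higher at day 3 of gefitinib and within 2-fold of vehicle in every day 21 antibody library.

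**Figure D3:**
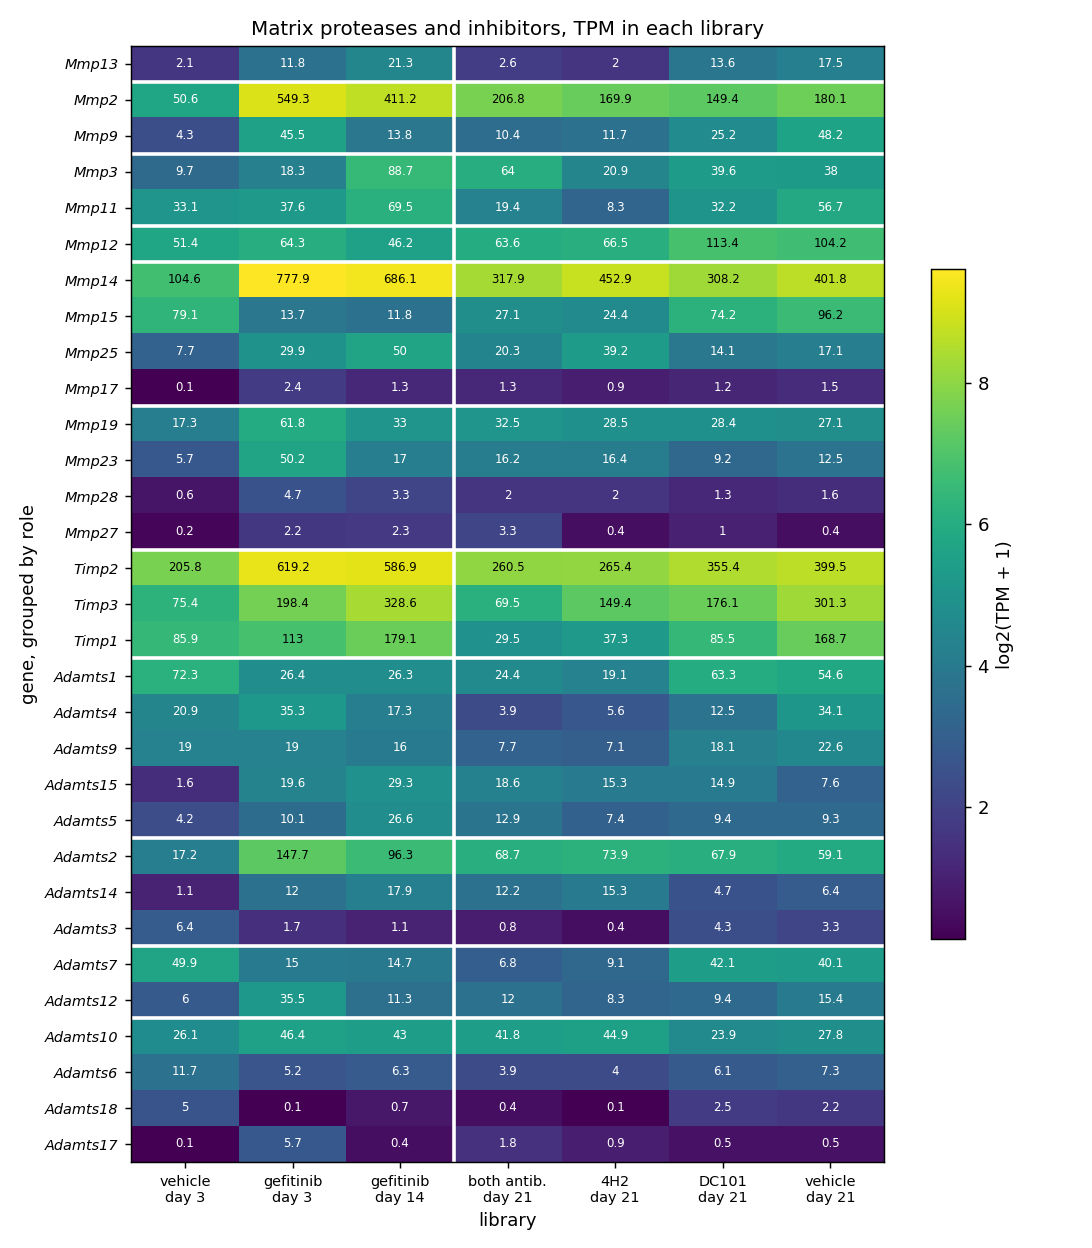
TPM of the 31 genes compared (rows, grouped by role) in the 7 libraries (columns), with colour for log2(TPM + 1) and the TPM printed in each cell. Mmp14, Mmp2 and Timp2 form the brightest rows, and Mmp15 and Adamts7 are dark at both gefitinib times and with 4H2 and both antibodies.

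Of the inhibitor genes compared, Timp2 and Timp3 were at least 2-fold higher at day 3 of gefitinib and all 3 at day 14, and Timp1 and Timp3 were lower with both antibodies and with 4H2 than with vehicle. Timp2 (chromosome 11, 118301061 to 118355411) encodes the inhibitor that also links MT1-MMP to the Mmp2 precursor. Timp2 was at 205.8 TPM with vehicle at day 3, 619.2 at day 3 of gefitinib and 586.9 at day 14. For Timp2, day 21 values were 260.5 TPM with both antibodies, 265.4 with 4H2, 355.4 with DC101 and 399.5 with vehicle. No antibody library was 2-fold apart from vehicle in Timp2. Timp1 (chromosome X, 20870166 to 20874737) encodes a secreted inhibitor that acts weakly on most membrane-type enzymes. Timp1 was at 85.9 TPM with vehicle at day 3, 113 at day 3 of gefitinib and 179.1 at day 14. For Timp1, day 21 values were 29.5 TPM with both antibodies, 37.3 with 4H2, 85.5 with DC101 and 168.7 with vehicle. Its log2 difference from vehicle at day 21 was -2.48 with both antibodies, -2.15 with 4H2 and -0.97 with DC101, the last just within 2-fold.

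Timp3 (chromosome 10, 86300412 to 86349505) encodes the inhibitor that binds to the matrix and also blocks several ADAMTS enzymes. Timp3 was at 75.4 TPM with vehicle at day 3, 198.4 at day 3 of gefitinib and 328.6 at day 14. For Timp3, day 21 values were 69.5 TPM with both antibodies, 149.4 with 4H2, 176.1 with DC101 and 301.3 with vehicle. Its log2 difference from vehicle at day 21 was -2.10 with both antibodies, -1.01 with 4H2 and -0.77 with DC101. Against 4H2 alone the library with both antibodies stood -1.09 apart, where 0.464% of all genes compared were at least 2-fold lower. The 4H2 difference from vehicle lies at the edge of the 2-fold rule and was -0.75 after median-of-ratios rescaling. Timp4, the fourth inhibitor, stayed between 0 and 1.1 TPM. Timp4 was listed at 0 with vehicle at day 3, 0.6 at day 3 of gefitinib and 0.5 at day 14. For Timp4, day 21 values were 0.7 TPM with both antibodies, 1.1 with 4H2, 0.8 with DC101 and 0.5 with vehicle. Timp1, Timp3 and Timp4 each lie inside a synapsin gene on the other strand, in Syn1, Syn3 and Syn2. Syn3 shares 1733 exon bases with Timp3 and did not pass 2.1 TPM.

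**Figure D4:**
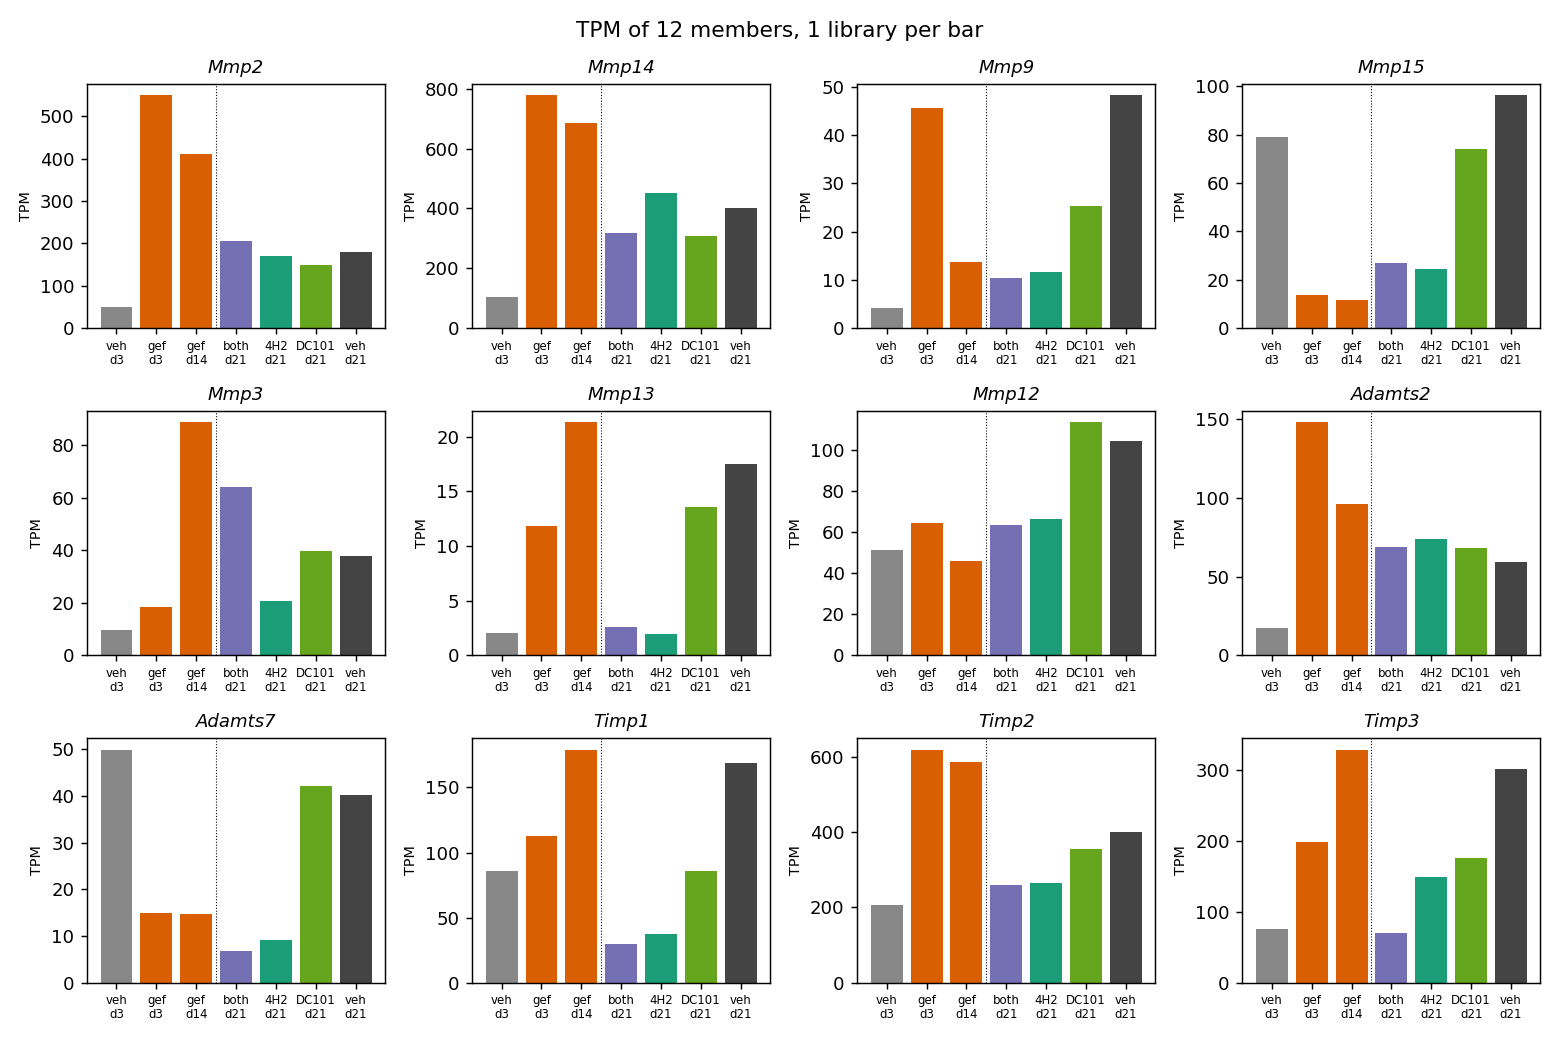
TPM of 12 genes in the 7 libraries, 1 library per bar, each panel with its own axis from 0. Mmp2 and Mmp14 are highest at day 3 of gefitinib (549.3 and 777.9 TPM), where Mmp15 and Adamts7 are at 13.7 and 15 TPM against 79.1 and 49.9 with vehicle at day 3.

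Among the ADAMTS genes that process procollagen, Adamts2 and Adamts14 had other levels than Adamts3. Adamts2 encodes the main procollagen N-proteinase. Adamts2 was at 17.2 TPM with vehicle at day 3, 147.7 at day 3 of gefitinib and 96.3 at day 14. For Adamts2, day 21 values were 68.7 TPM with both antibodies, 73.9 with 4H2, 67.9 with DC101 and 59.1 with vehicle. Adamts14 was lower throughout and was likewise high with gefitinib. Adamts14 was at 1.1 TPM with vehicle at day 3, 12 at day 3 of gefitinib and 17.9 at day 14. For Adamts14, day 21 values were 12.2 TPM with both antibodies, 15.3 with 4H2, 4.7 with DC101 and 6.4 with vehicle. The day 3 and day 14 log2 differences were 3.03 and 2.42 for Adamts2 and 2.63 and 3.17 for Adamts14. Adamts3, whose product also activates the lymphatic growth factor VEGF-C, was lower instead. Adamts3 was at 6.4 TPM with vehicle at day 3, 1.7 at day 3 of gefitinib and 1.1 at day 14. For Adamts3, day 21 values were 0.8 TPM with both antibodies, 0.4 with 4H2, 4.3 with DC101 and 3.3 with vehicle. Its log2 differences were -1.45 and -1.82 at the same times. With 5 rather than 1 TPM added they were -0.77 and -0.90, within 2-fold.

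The proteoglycan-cleaving genes split in the same way, also between direct neighbours. Adamts1 and Adamts5 lie next to each other on chromosome 16 with no protein-coding gene between them. Adamts1 was at 72.3 TPM with vehicle at day 3, 26.4 at day 3 of gefitinib and 26.3 at day 14. For Adamts1, day 21 values were 24.4 TPM with both antibodies, 19.1 with 4H2, 63.3 with DC101 and 54.6 with vehicle. Adamts5 was at 4.2 TPM with vehicle at day 3, 10.1 at day 3 of gefitinib and 26.6 at day 14. For Adamts5, day 21 values were 12.9 TPM with both antibodies, 7.4 with 4H2, 9.4 with DC101 and 9.3 with vehicle. At day 3 of gefitinib Adamts1 thus stood -1.42 and Adamts5 1.09 from vehicle on the log2 scale, and at day 14 -1.42 and 2.41. With 5 rather than 1 TPM added, the Adamts5 difference at day 3 was 0.71, within 2-fold. Adamts15, next to Adamts8 on chromosome 9, encodes a versican-cleaving enzyme and had the largest log2 difference of the 31 genes at day 14 of gefitinib, 3.54. Adamts15 was at 1.6 TPM with vehicle at day 3, 19.6 at day 3 of gefitinib and 29.3 at day 14. For Adamts15, day 21 values were 18.6 TPM with both antibodies, 15.3 with 4H2, 14.9 with DC101 and 7.6 with vehicle. Its neighbour Adamts8 did not pass 1.4 TPM.

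Adamts4 encodes an aggrecanase. Adamts4 was at 20.9 TPM with vehicle at day 3, 35.3 at day 3 of gefitinib and 17.3 at day 14. For Adamts4, day 21 values were 3.9 TPM with both antibodies, 5.6 with 4H2, 12.5 with DC101 and 34.1 with vehicle. It was the 1 gene of the 31 called against vehicle with DC101, at a log2 difference of -1.38, and stood -2.84 with both antibodies and -2.41 with 4H2. Within the day 21 libraries Adamts4 was lower in each antibody library than with vehicle. Adamts9 encodes a versican-cleaving enzyme. Adamts9 was at 19 TPM with vehicle at day 3, 19 at day 3 of gefitinib and 16 at day 14. For Adamts9, day 21 values were 7.7 TPM with both antibodies, 7.1 with 4H2, 18.1 with DC101 and 22.6 with vehicle. It did not differ by 2-fold under gefitinib, and its log2 differences were -1.44 with both antibodies and -1.54 with 4H2.

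The genes for the ADAMTS enzymes that cleave cartilage oligomeric matrix protein also diverged. Adamts7 was at 49.9 TPM with vehicle at day 3, 15 at day 3 of gefitinib and 14.7 at day 14. For Adamts7, day 21 values were 6.8 TPM with both antibodies, 9.1 with 4H2, 42.1 with DC101 and 40.1 with vehicle. Adamts12 was at 6 TPM with vehicle at day 3, 35.5 at day 3 of gefitinib and 11.3 at day 14. For Adamts12, day 21 values were 12 TPM with both antibodies, 8.3 with 4H2, 9.4 with DC101 and 15.4 with vehicle. Adamts7 was lower and Adamts12 higher than vehicle at day 3 of gefitinib, with log2 differences of -1.67 and 2.38. Adamts7 was again lower with both antibodies and with 4H2 than with vehicle at day 21 (-2.40 and -2.02). Epithelial markers summed to 446.1 TPM with both antibodies and 52.6 with 4H2, against 8443 with vehicle at day 21. Their part in the Adamts7 values was not tested.

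The other Adamts genes covered a wide range. Adamts10, whose product binds fibrillin microfibrils, had the narrowest range of the 31 genes. Adamts10 was at 26.1 TPM with vehicle at day 3, 46.4 at day 3 of gefitinib and 43 at day 14. For Adamts10, day 21 values were 41.8 TPM with both antibodies, 44.9 with 4H2, 23.9 with DC101 and 27.8 with vehicle. Adamts6 was at 11.7 TPM with vehicle at day 3, 5.2 at day 3 of gefitinib and 6.3 at day 14. For Adamts6, day 21 values were 3.9 TPM with both antibodies, 4 with 4H2, 6.1 with DC101 and 7.3 with vehicle. Adamts6 was highest with vehicle at day 3. Adamts18 and Adamts17 had the widest ratios between their highest and lowest library, 50 and 57, both against a lowest value of 0.1 TPM, the smallest step of the table. Adamts18 was at 5 TPM with vehicle at day 3, 0.1 at day 3 of gefitinib and 0.7 at day 14. For Adamts18, day 21 values were 0.4 TPM with both antibodies, 0.1 with 4H2, 2.5 with DC101 and 2.2 with vehicle. Adamts17 was at 0.1 TPM with vehicle at day 3, 5.7 at day 3 of gefitinib and 0.4 at day 14. For Adamts17, day 21 values were 1.8 TPM with both antibodies, 0.9 with 4H2, 0.5 with DC101 and 0.5 with vehicle. Adamts17 was above 2 TPM at day 3 of gefitinib alone, and Adamts18 was at or above 2 TPM with vehicle at both days and with DC101.

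Reads from overlapping genes on opposite strands could enter these values, since the sources used here do not say whether counting used strand. Adamts7 shares 122 exon bases with Tbc1d2b, Mmp11 shares 155 with Chchd10 and Mmp19 shares 789 with Tmem198b. Chchd10, named after its values were seen, was at 489.9 TPM with both antibodies and 637.6 with 4H2, against 87 TPM with vehicle at day 21, where Mmp11 was higher.

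Counted over the 31 genes compared, day 3 of gefitinib against vehicle at day 3 had 18 genes at least 2-fold higher and 6 lower. Of all genes compared, 20.8% were higher and 14.4% lower. The median log2 difference was 1.42 for the 31 genes and -0.09 for all genes. By family, 10 of 14 Mmp genes were higher and 1 lower, 2 of 3 Timp genes were higher and none lower, and 6 of 14 Adamts genes were higher and 5 lower. The 6 lower genes were Mmp15, Adamts1, Adamts3, Adamts6, Adamts7 and Adamts18. In the same pair all 14 fibroblast markers and 13 of 14 macrophage markers were higher, 8 of 10 endothelial markers were higher, and 11 of 14 epithelial markers were lower. What part cell composition had in these counts was not tested.

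Day 14 of gefitinib, set against the same vehicle library, had 18 genes higher and 5 lower, where 22.7% and 12.7% of all genes were. The medians were 1.06 for the 31 genes and 0.03 for all genes, and 0.58 for the 46 genes with no filter. Because the vehicle library is shared, the counts at the 2 times are not independent of each other. Since the vehicle library dates from day 3, elapsed time and gefitinib cannot be told apart in this pair. Set directly against day 3 of gefitinib, day 14 had Mmp3 and Adamts5 higher and Mmp9, Mmp23, Adamts12 and Adamts17 lower, with 4.93% and 2.73% of all genes higher and lower.

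In the vehicle library of day 21, taken 7 days after the end of gefitinib, 6 genes were higher and 7 lower than at day 14 of gefitinib. The shares of all genes were 7.62% and 7.89%. The higher genes were Mmp9, Mmp12, Mmp15, Adamts1, Adamts3 and Adamts7, and the lower ones Mmp2, Mmp3, Mmp25, Mmp27, Adamts5, Adamts14 and Adamts15. No Timp gene was called. In this pair 11 of 14 epithelial markers were higher, and 4 of 14 fibroblast and 10 of 14 macrophage markers lower. This pair shares its day 14 library with the comparison above. Elapsed time, the end of gefitinib and the vehicle given after it cannot be told apart in this pair. Against vehicle at day 3, the day 21 vehicle library had 14 of the 31 genes higher and none lower, where 15.3% and 3.11% of all genes were. The medians of these differences were 0.97 for the 31 genes and 0.04 for all genes. Between these vehicle libraries, elapsed time and the earlier gefitinib cannot be told apart.

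The 3 antibody comparisons share the vehicle library of day 21. With DC101, none of the 31 genes was 2-fold higher and 1, Adamts4, was lower, where 3.12% and 1.11% of all genes were. The genes next to that limit were Timp1, Mmp9 and Mmp11, with log2 differences of -0.97, -0.91 and -0.80, and on the higher side Adamts15 at 0.89. The Timp median was -0.77 and that of all genes -0.05. Skeletal muscle markers were higher with DC101 in 12 of 12 cases.

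With 4H2 alone, 2 of the 31 genes were higher and 12 lower, against 10.9% and 20% of all genes. With both antibodies the counts were again 2 and 12, against 11.7% and 17.0%. The medians were -0.64 with 4H2 and -0.34 with both antibodies for the 31 genes, and -0.21 and -0.17 for all genes. Median-of-ratios rescaling moved the median of all genes by 0.23 with 4H2 and 0.22 with both antibodies, to 0.02 and 0.05, and the medians of the 31 genes were then -0.39 and -0.11. Over all 46 genes with no filter they were -0.11 and 0. The higher genes were Mmp25 and Adamts14 with 4H2, and Mmp27 and Adamts15 with both antibodies. The lower genes, in each of the 2 libraries, were Mmp9, Mmp11, Mmp13, Mmp15, Timp1, Timp3, Adamts1, Adamts3, Adamts4, Adamts7, Adamts9 and Adamts18. All 14 epithelial markers were lower in both libraries and all 12 skeletal muscle markers higher. Fibroblast markers had medians of 0.15 and 0.05 with 4H2 and both antibodies, with 2 and 5 of 14 higher and none lower. The part of the lower epithelial and higher muscle RNA in these counts was not tested.

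Adding one antibody to the other was also compared. With both antibodies against 4H2 alone, Mmp3, Mmp11 and Mmp27 were higher and Timp3 lower, where 4.94% and 0.464% of all genes were. With both antibodies against DC101 alone, Mmp27 and Adamts14 were higher and 11 of the 31 genes lower, where 11.1% and 14.3% were. Epithelial markers summed to 446.1 TPM with both antibodies against 52.6 with 4H2 and 5648 with DC101. Against 4H2, 13 of 14 epithelial, 7 of 8 hair and skin and 6 of 10 proliferation markers were higher. Hair and skin markers summed to 607.5 TPM with both antibodies against 18.5 with 4H2 and 31.7 with DC101, with 1 of 10 listed at 0 with both antibodies and with 4H2. Proliferation markers summed to 155.6 TPM with both antibodies against 67.1 with 4H2 and 584.7 with DC101. The part of these markers in the member differences was not tested.

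**Figure D5:**
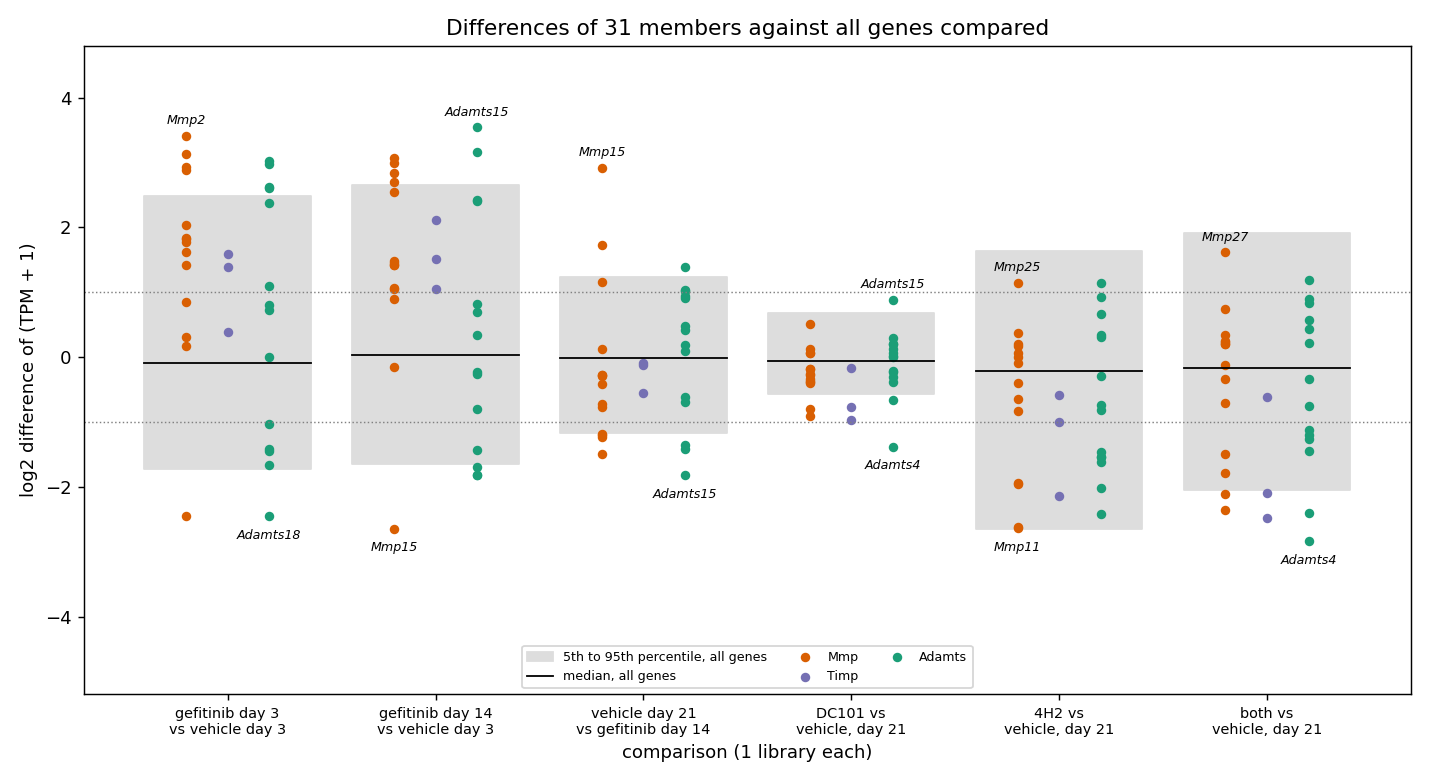
Log2 difference of (TPM + 1) for the 31 genes in the 6 main comparisons, 1 point per gene, coloured by family. Grey bars span the 5th to 95th percentile of all genes compared and black lines their median, and at day 3 of gefitinib the median of the 31 genes, 1.42, lies above the black line at -0.09.

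By library, 12 of the 31 genes had their highest value at day 3 of gefitinib and 9 at day 14, where 12.3% and 18.6% of all genes compared had theirs. The lowest value was with vehicle at day 3 in 17 of the 31 genes and in 30.2% of all genes. None of the 31 had its highest value with 4H2, where 10.1% of all genes had theirs.

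The wider protease network was described by 8 lists with 65 genes compared. At day 3 of gefitinib 38 of the 65 were higher and 6 lower than with vehicle, with a median of 1.38, where 20.8% and 14.4% of all genes were and the median was -0.09. Cysteine cathepsins, lysosomal proteases that macrophages and bone-resorbing cells also secrete, were higher in 6 of 8 cases, with Ctsk at 170.8 against 9.3 TPM and Ctss at 2618 against 347.8. Of 6 plasminogen system genes 2 were higher, the activators Plat (87 against 14.7 TPM) and Plau (80.1 against 23.2). Among proprotein convertases, which activate membrane-type Mmp and ADAMTS precursors, Pcsk6 was at 13.4 against 101 TPM and Pcsk5 at 15 against 3.8. Other inhibitors were mixed, 4 of 9 higher and 2 lower: Spint2, which blocks epithelial serine proteases, was at 232.1 against 571.8 TPM, and the complement inhibitor gene Serping1 at 551.5 against 73. The ADAM sheddases, which release membrane proteins, had 6 of 11 genes higher and 1 lower.

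After gefitinib, in vehicle at day 21 against day 14 of gefitinib, 6 of the 65 were higher and 10 lower, where 7.62% and 7.89% of all genes were. Plaur, the urokinase receptor gene, was at 217.7 against 70.6 TPM, Pcsk6 at 66.2 against 10.3 and Ctsk at 59.2 against 248.8. With DC101 against vehicle 1 was higher and 2 lower, where 3.12% and 1.11% of all genes were. One of the lower genes was the inhibitor gene Slpi at 14 against 57 TPM. With both antibodies 7 were higher and 17 lower, where 11.7% and 17.0% of all genes were, and with 4H2 4 and 20, where 10.9% and 20% were. Plaur was at 36.8 and 41 TPM with both antibodies and 4H2 against 217.7 with vehicle. Furin was at 105 and 125.8 against 284 TPM. The epithelial inhibitor gene Spint1 was at 13.1 and 3.8 against 153 TPM, in libraries where all 14 epithelial markers were lower. The part of these markers in the Spint1 values was not tested.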

How the data were processed

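RNA was extracted from frozen tumors, depleted of ribosomal RNA and made into directional libraries, per the labels' protocols. The authors deposited TPM for 21892 genes in 7 libraries, 1 per group, each summing to 1000000 within rounding and given to 1 decimal. Per the submitters' processing notes, GRCm38.p6 is the genome (aligner, counter and gene models: not given in the sources used here). Because such values hold no depth, no counting interval was computed.

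Differences are log2 of (TPM + 1) over (TPM + 1) for 13998 genes with mean TPM of at least 1, called at 2-fold, with no test. The families whose symbols the rule reads, and the lists, were chosen with earlier results of these data known. Genes printed in every library are the Timp genes, Mmp2, Mmp9, Mmp14, any member reaching 10 TPM, and any member called in a main comparison. Of each wider list, up to 2 genes called highest and 2 called lowest could be named, and Egfr and Chchd10 were named after their values were seen. Some genes are not reported here. There were 6 main and 4 secondary comparisons. Alternatives were a pseudocount of 0.1 or 5, a filter at a mean of 5 TPM or none, and 2 rescalings. Positions and promoters came from RefSeq tables of GRCm38.p6, which matched 46 and 32 members. The steps for calls and scaling were run on simulated data with known changes, larger than 2-fold and in abundant genes only. This does not measure how reliable the calls between pairs of libraries are. Python 3.11.15, pandas 2.3.3, numpy 2.4.6 and matplotlib 3.10.9 were used.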

Additional observations from a re-analysis of the deposited data

Results flagged for a closer look

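Members were singled out where the effect of 1 antibody had opposite signs without and with the other, at 1.5-fold or more each, a limit chosen after the values were seen. With 1 library per group the difference of the effects was not tested. Mmp3 had a log2 difference of 0.68 for 4H2 in the presence of DC101 (64 with both antibodies against 39.6 TPM with DC101) and of -0.83 in its absence (20.9 with 4H2 against 38 TPM with vehicle), which are 1.51 apart. Mmp11 had a log2 difference of 1.13 for DC101 in the presence of 4H2 (19.4 with both antibodies against 8.3 TPM with 4H2) and of -0.80 in its absence (32.2 with DC101 against 56.7 TPM with vehicle), which are 1.93 apart. Among all genes compared, 0.464% met this limit for 4H2 and 1.36% for DC101, against 1 of the 31 members for each antibody.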

How the results depend on the processing

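Named members were called in 89 cases over the 6 main comparisons, and no call changed sign under any alternative tried. A pseudocount of 0.1 kept 89 and added 5, and a pseudocount of 5 kept 65. The latter ended every call of Adamts3, Adamts18, Mmp17, Mmp27 and Mmp28. It also ended Adamts5 and Adamts6 at day 3 of gefitinib (0.71 and -0.71) and Mmp11 at day 14 (0.97). The other calls it ended were Adamts1 (vehicle at day 21 against day 14, 0.93), Adamts14 and Timp3 (4H2, 0.83 and -0.99) and Adamts15 (both antibodies, 0.91). Median-of-ratios rescaling kept 84 and added 3; it ended the calls of Adamts1 (vehicle at day 21 against day 14 of gefitinib, 0.99, and both antibodies against vehicle, -0.90), Adamts3 (vehicle at day 21 against day 14, 0.99), Adamts6 (day 3 of gefitinib, -0.93) and Timp3 (4H2, -0.75). Rescaling without muscle, mitochondrial, hemoglobin, histone, ribosomal and the most abundant genes kept 86, ending Timp1 and Mmp11 at day 14 of gefitinib (0.95 each) and Timp3 with 4H2 (-0.96). At day 3 of gefitinib the median of members was 0.72 with a pseudocount of 5 and 0.63 with no filter (0.58 at day 14, -0.04 for vehicle at day 21 against day 14, -0.11 with 4H2 and 0 with both antibodies), and 3 members were lower with a pseudocount of 5. At day 14, 3 were lower with a pseudocount of 5, and also 3 with the filter at 5 TPM. With 4H2, 1 member was higher with a pseudocount of 5. With both antibodies the median was -0.61 with the filter at 5 TPM and -0.11 after median-of-ratios rescaling (-0.39 with 4H2), and 0 members were higher with a pseudocount of 5, 1 with the filter at 5 TPM and 4 after median-of-ratios rescaling. With DC101, 1 was higher with a pseudocount of 0.1. Filtering on the 5 libraries other than 4H2 and both antibodies, chosen after seeing the data, left 13811 genes and changed no member count or member median in the 4 comparisons that use neither. No paired analysis was possible because each group holds 1 library. Depth is unknown, and members below about 1 TPM rest on the rounding step of 0.1.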

Other observations

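Matrix proteins that these proteases cut had 14 genes in the comparison, which are also counted among the 65 genes of the wider lists above. At day 3 of gefitinib against vehicle at day 3, 9 were higher and 1 lower, where 20.8% and 14.4% of all genes were. Col1a2, a fibrillar collagen gene, was at 6547 against 527.3 TPM and Eln, which encodes elastin, at 327.5 against 27.4, while Vcan, which encodes the proteoglycan versican, was at 25.6 against 124.3 TPM. In vehicle at day 21 against day 14 of gefitinib, 3 were higher and 1 lower, where 7.62% and 7.89% of all genes were. Col4a1, a basement membrane collagen gene, was at 646 against 251.8 TPM, and Dcn, which encodes decorin, at 101.6 against 321.6. With both antibodies and with 4H2, 5 were lower and 1 higher than with vehicle in each library, where 17.0% and 11.7% of all genes were lower and higher with both antibodies and 20% and 10.9% with 4H2. Vcan was at 8.5 and 7.4 against 47.7 TPM, and Dcn at 347.7 and 217.6 against 101.6.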
